A study of Mus musculus with 6 samples.

Results

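The 10 genes described here encode the insulin-like growth factor (IGF) ligands Igf1 and Igf2, the receptors Igf1r and Igf2r, and the IGF binding proteins Igfbp2, Igfbp3, Igfbp4, Igfbp5, Igfbp6 and Igfbp7. They were chosen by name as a pathway family, with earlier results of these data known. All 10 were among the 17020 genes tested. The IGF system drives growth of long bones: IGF-1 and IGF-2 bind the IGF-1 receptor, a tyrosine kinase that signals through insulin receptor substrates to PI3K and AKT. The IGF-2 receptor has no kinase domain and carries IGF-2 to the lysosome, and the binding proteins hold the ligands in the blood and the matrix and release them when proteases cut them. In cartilage, growth hormone is a known inducer of Igf1.

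RNA came from growth plate chondrocytes of the hindlimb of mice at postnatal day 30, with 1 Affymetrix array per sample. The samples were 3 conditional Lkb1 mutants and 3 controls, on the mixed background given as FVB, 129S6 and C57CL/6 for all 6. Lkb1 is the older name of Stk11, a kinase that activates AMPK and related kinases; the labels used here name neither the allele, the Cre driver nor the genotype of the controls. The labels call the replicates biological without saying that they are separate animals, so each p-value reflects only how far these samples spread, which may be technical. All levels below are log2(intensity + 1), differences are mutant minus control on that scale, and "called" means an adjusted p under 0.05 from limma, corrected over the whole set of genes tested by the Benjamini-Hochberg method.

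Stk11 was at 7.39, 7.51 and 7.52 in mutant replicates 1, 2 and 3 and at 8.68, 9.08 and 9.67 in control replicates 1, 2 and 3, a difference of -1.67 (SE 0.22, limma adjusted p = 0.00387). Whether its probes lie in the deleted part is unknown here, and the controls rank as they do for the mean of the bone marrow markers below. The array medians were 82.4 to 90.5 in intensity, and precision is limited by the 3 arrays in each group. A background level was taken on each array as the point below which 95% of 1035 olfactory receptor probe sets fell, which was 6.40 to 6.73. The labelled cell type was checked on 8 chondrocyte markers, whose mean was 11.79 to 11.89 in the mutants and 11.85 to 11.96 in the controls. Of these, 0 of 8 were called, against 14.7% of all genes tested. The control arrays carried bone marrow transcripts to differing degrees. Over 19 markers of erythroid cells, neutrophils and B cells, the mean was 6.01, 6.07 and 5.73 in mutant replicates 1, 2 and 3, and 8.71, 9.46 and 10.16 in control replicates 1, 2 and 3.

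Both IGF ligands and 3 of the 6 binding proteins rose in the Lkb1 mutants, and neither receptor was called. Of the 10 genes, 5 were called higher and 0 were called lower, where 7.84% of all genes tested were called higher and 6.82% lower. Igfbp4 was 3.24-fold higher in the mutants, Igf1 2.56-fold, Igf2 2.36-fold and Igfbp5 1.74-fold. Igfbp3 was at least 3.11-fold higher, set against the background level, which 1 of 3 controls exceeded. Differences of at least 1 with a call were found in 4 of the 10 genes and upward in 1.58% of all genes tested. The mutant and control arrays did not overlap for 8 of the 10 genes, against 36.7% of all genes tested. Of these, 7 were higher, against 20.0% of all genes, and 1 was lower, against 16.7%. The median difference of the 10 genes was 0.75, and that of all genes tested was 0.03.

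**Figure D1:**
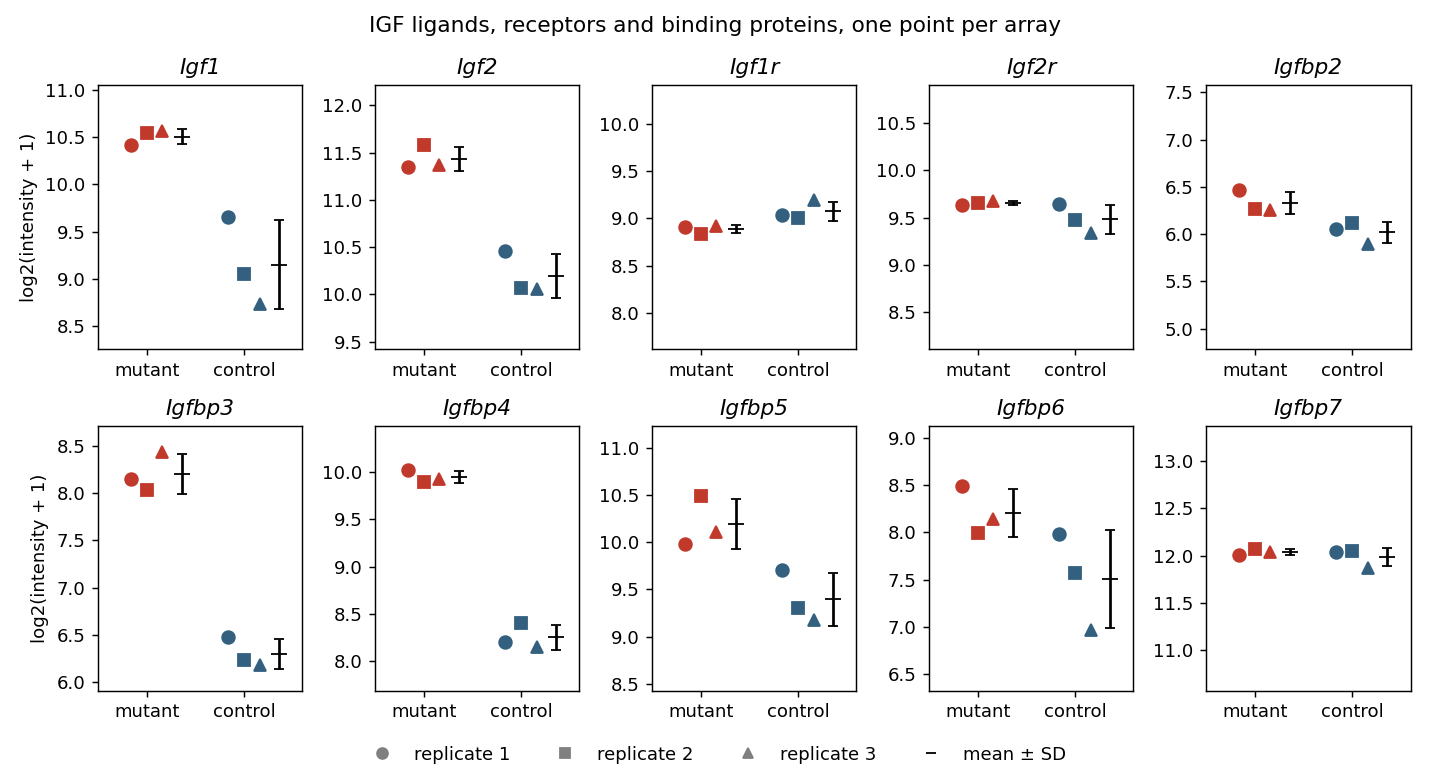
Level of each of the 10 IGF genes on each array, as log2(intensity + 1), with the 3 mutant arrays left of the 3 control arrays in each panel; marker shapes give the replicate number, and the bar beside each group is the mean ± SD (n = 3). Every panel spans the same range of log2 units around its own centre. The mutant points lie above all control points for Igf1, Igf2, Igfbp2, Igfbp3, Igfbp4, Igfbp5 and, by a narrow margin, Igfbp6.

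Igf1 encodes the growth factor that mediates much of the action of growth hormone on bone. It was at 10.41, 10.54 and 10.57 in mutant replicates 1, 2 and 3, and at 9.66, 9.05 and 8.74 in control replicates 1, 2 and 3 (probe set 10365559). The mutants were tightly grouped and the controls spread over 0.92, with no overlap between the groups. The difference was 1.36 (SE 0.21, n = 3 per group, limma adjusted p = 0.00703). The control array with the lowest bone marrow signal had the highest Igf1, and against that array alone the difference was 0.85.

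Igf2, an imprinted gene whose product is the main fetal IGF, was at 11.35, 11.58 and 11.37 in the mutants and at 10.46, 10.07 and 10.06 in the controls (probe set 10569344). Every mutant array was higher than every control array. The difference was 1.24 (SE 0.13, limma adjusted p = 0.00167), and 0.97 against control replicate 1 alone. The bulk RNA used here cannot tell more cells that express a gene from more RNA per cell, which applies to each difference in this family.

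The Igf2 gene also hosts the microRNA miR-483, whose hairpin lies within Igf2 in RefSeq (build GRCm38.p6, chromosome 7, minus strand). Its mature arms are shown because the array has a probe set for Mir483 apart from that of its host, with the seed, bases 2 to 8, in capitals.
mmu-miR-483-5p: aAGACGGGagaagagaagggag
mmu-miR-483-3p: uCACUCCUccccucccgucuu
The Mir483 probe set was at 6.93, 6.76 and 6.61 in the mutants and at 6.69, 6.65 and 6.78 in the controls. These values overlap, and the difference was 0.06 (95% confidence interval -0.19 to 0.31, limma adjusted p = 0.75). The interval lies below the 1.24 of Igf2. Each Mir483 value exceeded the background level of its own array, but lay close to that level, which was 6.40 to 6.73. Dim signal limits the size of a difference, so whether Mir483 followed its host cannot be judged here. The probe set measures RNA in a whole-transcript assay, not the mature arms.

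Igf1r, the signalling receptor of both ligands, was at 8.91, 8.84 and 8.91 in the mutants and at 9.04, 9.0 and 9.19 in the controls. All 3 mutant values lay below all 3 control values, which held for no other of the 10 genes. The difference of -0.19 (SE 0.09, limma adjusted p = 0.209) was not called, and its 95% interval was -0.40 to 0.02. Igf2r, which clears IGF-2 from the cell surface, was at 9.63, 9.65 and 9.67 in the mutants, within a range of 0.04. Its controls were at 9.64, 9.47 and 9.34, so the groups overlapped. The difference was 0.17 (interval -0.07 to 0.40, limma adjusted p = 0.323), and against control replicate 1 alone it was 0.01. In mice the noncoding RNA Airn, which overlaps Igf2r, silences the paternal Igf2r allele. Airn differed by 0.20 (limma adjusted p = 0.246) and was not called.

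Among the binding proteins, Igfbp3, the main carrier of IGFs in serum, was at 8.14, 8.03 and 8.44 in the mutants and at 6.48, 6.24 and 6.18 in the controls (probe set 10384223). All mutants and 1 of 3 controls exceeded the background level. With the other control values raised to that level the mutants were at least 3.11-fold higher, so Igfbp3 and Igfbp4 are not ranked by size. The fitted difference was 1.91 (SE 0.13, limma adjusted p = 0.000377), and 1.73 against control replicate 1 alone.

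Igfbp4, an inhibitor of IGF action that the protease PAPP-A cuts, was at 10.02, 9.89 and 9.93 in the mutants and at 8.20, 8.40 and 8.15 in the controls (probe set 10381096). All 6 values exceeded background, and the SD was 0.07 in the mutants and 0.13 in the controls. The difference of 1.70 (SE 0.10, limma adjusted p = 0.000258) had the smallest p of the 10 genes. Against control replicate 1 alone it was 1.75. Its adjacent protein-coding genes in RefSeq are Top2a and Tns4. Top2a, which encodes a topoisomerase of dividing cells, differed in the other direction, by -1.06 (limma adjusted p = 0.00575). Tns4 differed in the same direction as Igfbp4, by 0.31 (limma adjusted p = 0.173), and was not called.

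Igfbp5, which binds to matrix and is abundant in skeletal tissue, was at 9.98, 10.48 and 10.11 in the mutants and at 9.71, 9.30 and 9.17 in the controls (probe set 10355500). The groups did not overlap, but the SD of 0.26 in the mutants and 0.28 in the controls was wider than for Igfbp4. The difference was 0.80 (SE 0.18, limma adjusted p = 0.0257). The call ended without control replicate 2 (adjusted p = 0.0909), without control replicate 3 (0.0536), without mutant replicate 2 (0.0838) and without mutant replicate 3 (0.0793). Against control replicate 1 alone the difference was 0.48.

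The other 3 binding proteins were not called. Igfbp6, which prefers IGF-2 to IGF-1, was at 8.49, 7.99 and 8.15 in the mutants and at 7.99, 7.57 and 6.96 in the controls, with mutant replicate 2 and control replicate 1 separated by less than 0.01. Its difference was 0.70 (interval 0.11 to 1.29 before adjustment, limma adjusted p = 0.112), and it was called without control replicate 1 (difference 0.94, adjusted p = 0.023). Against control replicate 1 alone the difference was 0.22. Igfbp2, whose protein carries an integrin-binding motif, was at 6.47, 6.26 and 6.26 in the mutants and at 6.05, 6.11 and 5.89 in the controls. None of these 6 values exceeded background, and the difference of 0.31 was not called (limma adjusted p = 0.0927). Igfbp7, a low-affinity IGF binder of the matrix, was at 12.01, 12.07 and 12.04 in the mutants and at 12.04, 12.05 and 11.87 in the controls. Its difference was 0.05, with an interval of -0.16 to 0.26.

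**Figure D2:**
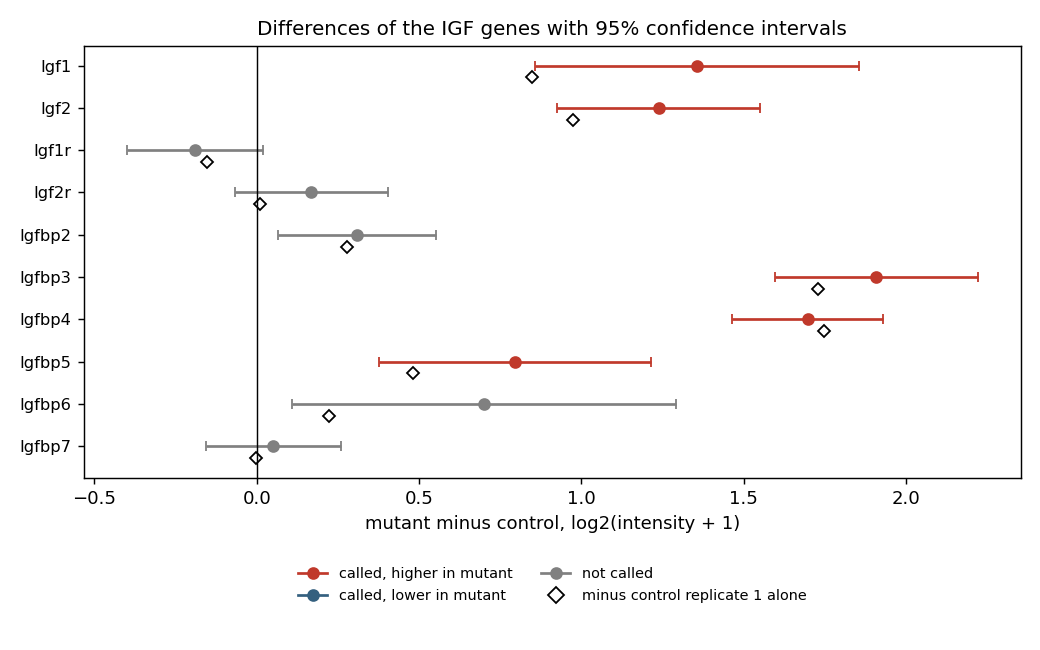
Mutant minus control difference of each IGF gene on the log2(intensity + 1) scale (points) with the 95% confidence interval of the limma fit, not adjusted for the number of genes; red points were called higher and grey points were not called. Diamonds give the mean of the 3 mutants minus control replicate 1 alone, which lies near the fitted value for Igfbp4 (1.75 against 1.70) and below it for Igf1 (0.85 against 1.36).

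Some members lie next to relatives in the genome. Igfbp2 and Igfbp5 are adjacent protein-coding genes on chromosome 1, with differences of 0.31 and 0.80. Igfbp3 lies next to Igfbp1, a liver-enriched binding protein, on chromosome 11; Igfbp1 differed by 0.10 (limma adjusted p = 0.548), was not above background on any array, and Igfbp3 differed by 1.91. The mouse insulin gene Ins2, next to Igf2, was at background on all 6 arrays and differed by -0.14 (limma adjusted p = 0.311). The difference between neighbours was not tested.

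Promoter stretches of the 5 genes that rose together, and of Igf1r as a member that was not called, are shown to let their base composition and motifs be compared. Each is the 250 bases before the transcription start in RefSeq (build GRCm38.p6), 5′ to 3′ on the gene's strand, with the most upstream listed start for Igf2, which has 4. Capitals mark matches to the TATA box TATAAA and the Sp1 GC box GGGCGG on either strand; GGGCGG matches may overlap one another.
Igf1, chr10:87860861-87861110, plus strand: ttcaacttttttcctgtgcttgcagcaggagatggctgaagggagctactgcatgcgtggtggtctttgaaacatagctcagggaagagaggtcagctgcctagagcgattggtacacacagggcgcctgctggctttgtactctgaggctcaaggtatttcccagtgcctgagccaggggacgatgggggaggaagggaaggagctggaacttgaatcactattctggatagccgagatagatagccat
Igf2, chr7:142666817-142667066, minus strand: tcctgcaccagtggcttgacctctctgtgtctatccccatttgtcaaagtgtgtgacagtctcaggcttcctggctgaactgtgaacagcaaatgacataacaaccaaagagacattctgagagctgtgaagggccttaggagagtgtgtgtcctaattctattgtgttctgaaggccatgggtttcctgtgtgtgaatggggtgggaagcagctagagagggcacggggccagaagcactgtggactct
Igfbp3, chr11:7213924-7214173, minus strand: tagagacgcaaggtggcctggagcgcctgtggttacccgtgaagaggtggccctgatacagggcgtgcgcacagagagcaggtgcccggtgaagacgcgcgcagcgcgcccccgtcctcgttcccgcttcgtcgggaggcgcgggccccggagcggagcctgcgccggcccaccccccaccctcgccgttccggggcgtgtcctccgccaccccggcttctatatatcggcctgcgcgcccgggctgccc
Igfbp4, chr11:99040994-99041243, plus strand: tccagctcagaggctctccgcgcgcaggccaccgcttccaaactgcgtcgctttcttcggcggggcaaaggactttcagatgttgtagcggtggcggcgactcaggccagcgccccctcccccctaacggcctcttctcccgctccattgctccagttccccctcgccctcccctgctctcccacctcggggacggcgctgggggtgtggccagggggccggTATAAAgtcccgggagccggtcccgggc
Igfbp5, chr1:72874866-72875115, minus strand: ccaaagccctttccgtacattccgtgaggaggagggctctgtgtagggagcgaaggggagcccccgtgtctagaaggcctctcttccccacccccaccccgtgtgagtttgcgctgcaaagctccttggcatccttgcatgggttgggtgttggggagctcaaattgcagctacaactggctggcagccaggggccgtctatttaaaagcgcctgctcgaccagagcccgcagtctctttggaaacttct
Igf1r, chr7:67952007-67952256, plus strand: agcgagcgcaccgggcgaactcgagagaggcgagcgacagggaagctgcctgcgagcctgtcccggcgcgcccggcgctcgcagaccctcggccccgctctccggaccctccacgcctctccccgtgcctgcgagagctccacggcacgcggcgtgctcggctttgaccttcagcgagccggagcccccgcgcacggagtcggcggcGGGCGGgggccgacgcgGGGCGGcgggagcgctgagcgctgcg
In these stretches GGGCGG occurred in Igf1r and, not printed, in Igf2r, Igfbp2 and Igfbp7, 4 of the 10 genes, and in 32.7% of 32851 RefSeq promoter stretches of the same length. It was in none of the 5 printed stretches of called genes, but the stretches before the other Igf2 starts held it at 2 of 3. TATAAA occurred in Igfbp4, where it ran from 28 to 23 bases before the start. In Igfbp6 it lay on the opposite strand, from 148 to 143 bases before the start. The motif was in 12.4% of all stretches. The cAMP response element TGACGTCA, the FoxO site TGTTTAC and the STAT site TTCNNNGAA, searched on both strands, had 0 matches at the most upstream start of any of the 10 genes, against 1.55%, 3.17% and 7.02% of all stretches. Among the genes not called, the share of G and C was 77.6% in Igf1r and 69.2% in Igf2r. It was 67.2% in Igfbp2, 49.6% in Igfbp6 and 74.0% in Igfbp7, also not called. In the called genes it was 52.8% (Igf1), 50.8% (Igf2), 73.2% (Igfbp3), 69.2% (Igfbp4) and 58.8% (Igfbp5). The median over all stretches was 52.4%. A match describes these letters, not binding.

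Across the arrays, the members differed in how they varied among the controls. Of the 10 genes, 6 had their highest control level in replicate 1 and their lowest in replicate 3, an order found in 21.4% of all genes tested: Igf1, Igf2, Igf2r, Igfbp3, Igfbp5 and Igfbp6. The mean of the marrow markers had the reverse order on these arrays. The B cell markers Cd79a, Cd79b, Pax5 and Vpreb1 did not. Cd79a, for one, was at 8.52, 8.38 and 9.20 in control replicates 1, 2 and 3. Igfbp4, Igfbp7 and Igfbp2 peaked in control replicate 2, and Igf1r in control replicate 3. The SD was larger in the controls than in the mutants for 8 of the 10 genes and for 71.0% of all genes tested; Igfbp2 and Igfbp3 were the exceptions.

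Markers of other cell types moved with the group. Rises and falls counted here are calls. The shares called over all genes tested were 7.84% higher and 6.82% lower. Of 19 bone marrow markers, 18 fell and 0 rose. Of 8 fibrous tissue and tendon markers, 4 rose and 0 fell, with means of 9.64 to 9.73 in the mutants and 8.55 to 8.97 in the controls. Of 7 endothelial markers, 5 rose and 0 fell (means 7.37 to 7.68 in the mutants and 6.66 to 6.84 in the controls), and of 7 macrophage markers all 7 rose (8.25 to 8.80 in the mutants and 7.46 to 7.75 in the controls). Macrophages, fibroblasts and endothelial cells are known to express IGF genes as well. Of 4 hypertrophic chondrocyte markers, 3 fell, with means of 9.81 to 10.01 in the mutants and 10.50 to 10.66 in the controls, and of 4 osteoblast markers 1, Col1a1, rose. No marker was listed at 0, the lowest intensity in the table being 0.74, and the part of these cells in the IGF differences was not tested.

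**Figure D3:**
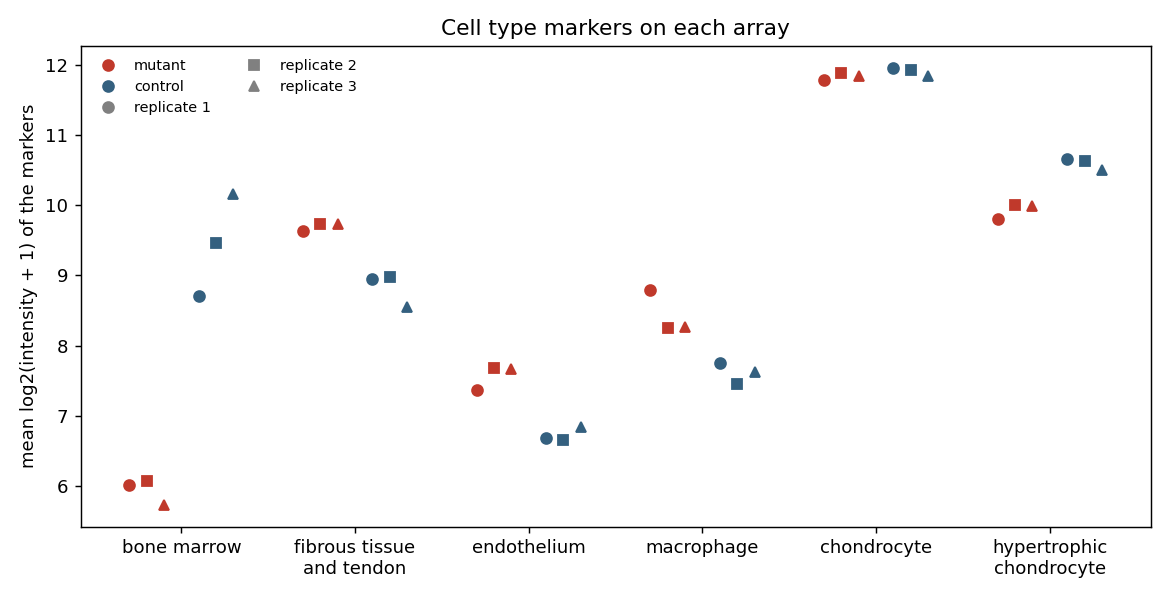
Mean log2(intensity + 1) of the markers of each cell type on each array, with mutant arrays (red) left of control arrays (blue) and shapes for the replicate number. Bone marrow markers were at 5.73 to 6.07 in the mutants and 8.71 to 10.16 in the controls, and chondrocyte markers were at 11.79 to 11.89 in the mutants and 11.85 to 11.96 in the controls.

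The wider IGF axis was described through 7 lists of 50 genes, of which 45 were tested. Of these, 7 rose, 3 fell and 35 were not called, and their median difference was 0.15. Over all genes tested, 7.84% were called higher, 6.82% lower and 14.7% in either direction, with a median difference of 0.03. The counts of single lists below are to be read beside these shares. By rule, the genes named from each list are the called ones, or the one with the smallest p where none was called. Some genes that were not called are named besides.

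Of 7 genes of the growth hormone input, 3 rose, 0 fell and 4 were not called, where 7.84% of all genes tested were called higher and 6.82% lower. Those not called were Socs2 (0.47, limma adjusted p = 0.101), Stat5a (0.28, 0.131), Jak2 (0.22, 0.13) and Cish, which differed in the other direction (-0.165, 0.555). Ghr, the growth hormone receptor, was at 10.10, 10.03 and 9.97 in the mutants and at 8.82, 8.83 and 8.46 in the controls. The groups were apart by more than 1, and the difference was 1.33 (SE 0.12, limma adjusted p = 0.000914). Stat5b, the transcription factor that carries the growth hormone signal to Igf1, rose by 0.45 (adjusted p = 0.022), and Socs3, a feedback inhibitor of cytokine receptors, rose by 0.65 (adjusted p = 0.045). Stat5b lost its call without control replicate 2, without mutant replicate 1 and without mutant replicate 3 (adjusted p up to 0.106), and Socs3 without control replicate 2, without each mutant replicate, with median centring and with no filter (adjusted p up to 0.149).

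Of 7 genes for proteases that cut binding proteins and for their inhibitors, 2 rose and 1 fell. Stc1, stanniocalcin-1, an inhibitor of PAPP-A known from human proteins, was at 7.15, 7.47 and 7.67 in the mutants and at 6.20, 5.74 and 6.08 in the controls. No control exceeded background, so the mutants were at least 1.84-fold higher, set against the background level. The fitted difference was 1.42 (SE 0.17, limma adjusted p = 0.00228). Htra1, a serine protease that cuts IGFBP-5, rose by 0.64 (adjusted p = 0.0233). Pappa2, the protease that cuts IGFBP-3 and IGFBP-5, was at 6.05, 5.89 and 6.05 in the mutants, all at background, and at 7.49, 6.88 and 6.57 in the controls, of which 2 of 3 exceeded it. It was at least 1.32-fold lower in the mutants, with a fitted difference of -0.98 (limma adjusted p = 0.0228). The Htra1 call ended without control replicate 2 and without mutant replicates 1 and 3 (adjusted p up to 0.101), and that of Pappa2 without control replicate 2 and without each mutant replicate (up to 0.0856). Pappa, the protease of IGFBP-4, differed by 0.16 (adjusted p = 0.606), and Stc2, which also inhibits it, by -0.56 (adjusted p = 0.0923).

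Of 11 receptors and adaptors of the insulin family, 1 rose and 1 fell, close to the shares of all genes tested (7.84% higher and 6.82% lower). Irs1, the insulin receptor substrate through which the IGF-1 receptor signals, was at 8.69, 8.60 and 8.88 in the mutants and at 7.91, 7.84 and 7.80 in the controls. The difference was 0.87 (SE 0.10, limma adjusted p = 0.0021), and 0.53 with the mean of its probe sets in place of the brightest, also called. Grb14, an adaptor that inhibits the insulin receptor, was at 7.40, 7.75 and 7.87 in the mutants and at 8.61, 8.65 and 8.37 in the controls, a difference of -0.87 (SE 0.14, adjusted p = 0.00835). Insr, the insulin receptor, differed by -0.05 (interval -0.29 to 0.20).

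Of 12 PI3K, AKT and FoxO genes tested, only Foxo4, a transcription factor that AKT inhibits, was called, and it fell by 0.32 (limma adjusted p = 0.0493). That call ended under 11 of 14 alternatives, quantile normalisation, median centring and the replicate block among them. In the list of 3 other carriers, Igfals, the subunit that completes the serum IGF complex, rose by 0.65 (adjusted p = 0.00435). No control exceeded background, so it was at least 1.31-fold higher in the mutants. Of the 3 tested partners of Igf2r in lysosomal sorting none was called, and Gnptg, a subunit of the enzyme that makes the mannose 6-phosphate tag, differed by 0.29 (adjusted p = 0.0598) and was called with quantile normalisation, with the filter at the median and without control replicate 3. Of the 2 tested regulators of Igf2 RNA none was called, and Igf2bp1 differed by -0.18 (adjusted p = 0.232), at background on all arrays.

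**Figure D4:**
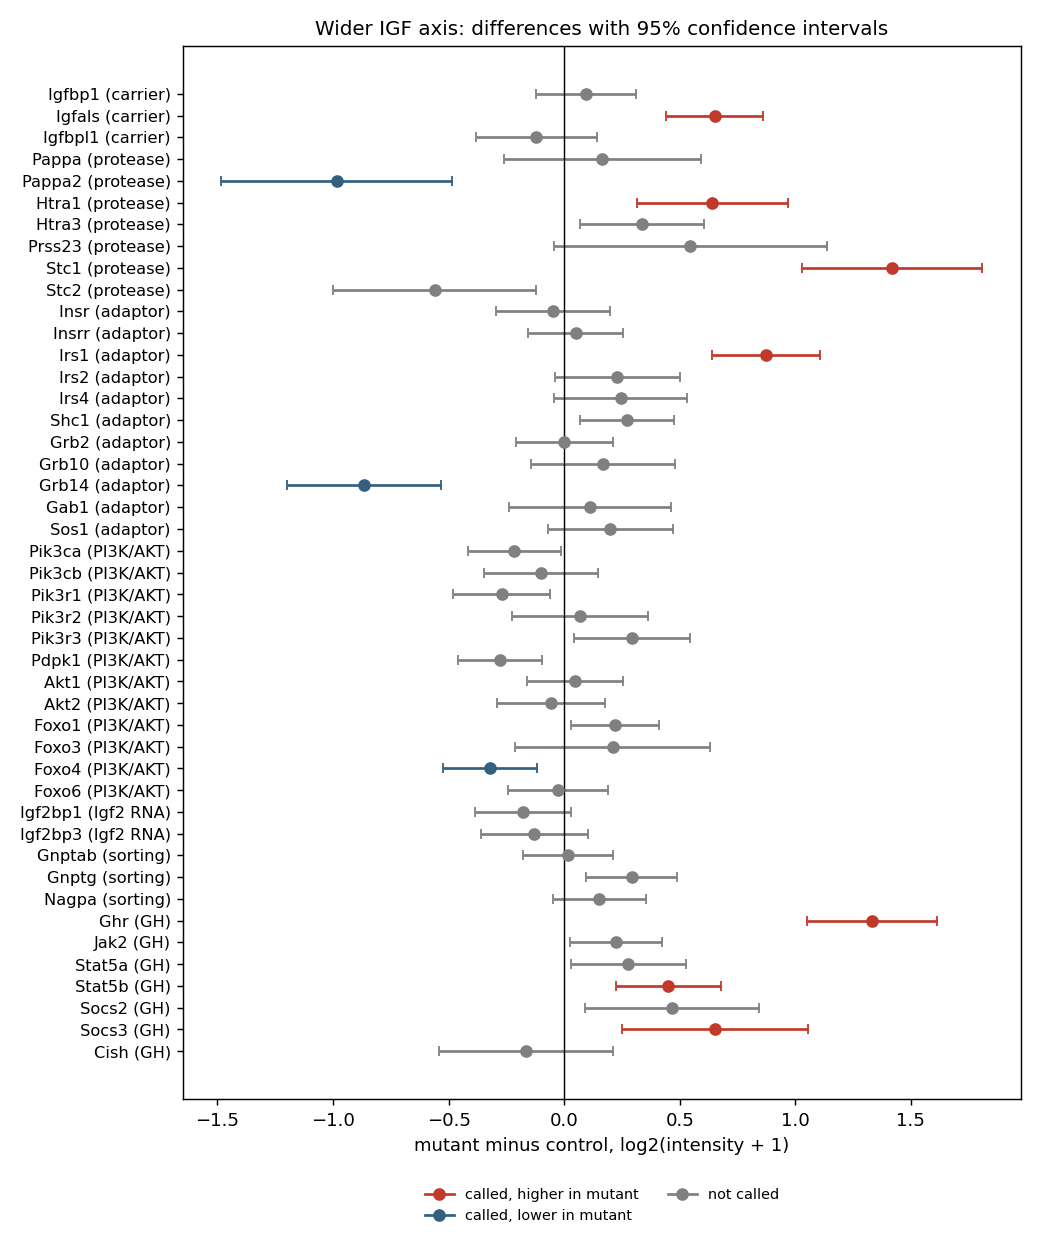
Mutant minus control differences of the 45 tested genes of the wider IGF axis on the log2(intensity + 1) scale, with 95% confidence intervals not adjusted for the number of genes; red was called higher, blue called lower and grey not called. The 7 red points include Ghr at 1.33, Stc1 at 1.42 and Irs1 at 0.87, and the 3 blue points are Pappa2, Grb14 and Foxo4.

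Genes with the most similar profiles were sought for the 3 called members with the largest fitted differences, by Euclidean distance over the 6 arrays after each gene's mean was subtracted. Nearest to Igfbp3 were Ndnf (distance 0.196) and Gask1b (0.204), with differences of 1.87 and 1.98. Nearest to Igfbp4 were Rnf180 (0.238) and Ppp1r3c (0.243), with differences of 1.55 and 1.73. All controls of Ndnf and Gask1b, and control replicates 2 and 3 of Rnf180, were below background, which limits the size of these differences. Nearest to Igf1 were Zim1 (0.216) and Tenm3 (0.256). Zim1 was at 8.61, 8.79 and 8.75 in the mutants and at 8.0, 7.48 and 7.10 in control replicates 1, 2 and 3, the order that Igf1 has. These profiles share the same 6 arrays, and the distances are descriptions.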

How the data were processed

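The values are intensities deposited by the authors on a linear scale, for 35512 probe sets on each of 6 arrays. Per the labels' protocols, 300 ng of total RNA was labelled with a whole-transcript kit. The sources used here do not give the background correction, probe summary or normalisation between arrays. All columns matched a sample by name, and groups came from sample titles.

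Of the probe sets, 21789 are annotated to 1 gene, 1621 to several and 12102 are not listed; 21698 symbols were updated by gene number to RefSeq (GRCm38.p6). The intensities were transformed to log2(intensity + 1). The dimmest 25% of probe sets by mean (below 5.56) were left out, and the probe set with the highest mean was kept per gene, which left 17020 genes. Each of the 10 IGF genes has 1 probe set. The mutant minus control contrast was fitted by lmFit and eBayes of limma 3.58.1 (R 4.3.3) as a two-sided test, its p-values were corrected across the 17020 genes by Benjamini-Hochberg, and the script was tested on simulated data. An exact permutation test of 3 against 3 cannot go below 0.1 and was not used. The members, lists and named-gene rule (all members; of each wider list the called genes, at most 4, or the one with the smallest p; the 2 nearest profiles of 3 members) were chosen with earlier results of these data known. Top2a, Tns4, Ins2, Airn, Mir483, Igfbp1, Insr, Pappa, Stc2, Socs2, Stat5a, Jak2, Cish and Col1a1 were named after their values were seen.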

Additional observations from a re-analysis of the deposited data

How the results depend on the processing

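The fit was repeated with a pseudocount of 16, with the replicate block, with an intensity trend, with probe sets averaged per gene, with quantile normalisation or median centring, with no filter or one at the median, and without each array in turn. Igf1, Igf2, Igfbp3 and Igfbp4 were called higher in all 14, with adjusted p up to 0.038, 0.0116, 0.00428 and 0.00282. Of the 10 genes, 4 to 6 were called with 1 array left out. Igfbp5 lost its call without control replicate 2 or 3 or mutant replicate 2 or 3, and Igfbp6 gained one without control replicate 1, in fits with fewer arrays; the cause was not tested. With 1 array left out, Igfbp7 ranged from -0.0057, without control replicate 3, to 0.0811, and it differed by -0.0036 against control replicate 1 alone. Over all genes, 2496 were called, 1335 higher and 1161 lower. With 1 array left out the count ranged from 936 to 3282, with 512 to 1642 higher and 424 to 1640 lower. The replicate block gave 2031 calls and called the same 5 IGF genes; of the named genes of the wider lists it ended only the call of Foxo4. Same-numbered mutant and control arrays had deviations from their group means correlated at 0.08, 0.21 and -0.08 over genes. Mutant replicates 1 and 2 correlated best with the control of their own number, and mutant replicate 3 with control replicate 1 (0.11). Such small correlations cannot settle pairing. The numbers were not taken as pairs because the labels do not say that a number marks a shared litter, day or batch. Igfbp2 was not tested with the filter at the median. Leaving out control replicates 2 and 3 together gives differences only, since 1 control holds no spread. Dim genes limit the size of a difference, as for Igfbp2, and for Igfbp3 in the controls.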
